A study of Mus musculus with 6 samples.

Results

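The Zfp genes, the mouse genes named for a numbered zinc-finger protein, were taken by symbol: every gene whose symbol in the array annotation opens with Zfp and a digit, except Zfp423, Zfp521, Zfp467 and the Zfp36 group, 7 symbols in all. This gave 324 genes with 591 probes, of 19057 genes with 34885 probes that carried 1 symbol. Transcripts had been measured on 6 Illumina 1-colour bead arrays, 3 of GFP-positive and 3 of GFP-negative cells, 1 array per sample. Both groups were PDGFRβ-positive stromal cells, negative for CD31 and CD45, sorted by flow cytometry from epididymal fat of male Zfp423-GFP mice aged 5 weeks. The GFP-positive cells had reporter fluorescence and the GFP-negative cells did not, so both groups carry the same reporter allele and were separated by the sort gate. The labels call the samples biological triplicates. The sources used here do not give whether a sample held 1 animal or several, nor how the reporter allele was built, and p-values measure the spread between these samples. The question addressed was whether these genes differ between the groups, 1 by 1 or as a family.

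Most proteins with Zfp names carry C2H2 zinc fingers, small folds in which a pair of cysteines and a pair of histidines hold a zinc ion, and which in tandem arrays read DNA. A large subgroup also carries a KRAB domain, which recruits Trim28 (KAP1) and, through it, the histone methyltransferase Setdb1 and heterochromatin proteins. KRAB zinc-finger proteins are known for silencing retroelements and guarding imprints, and many of their genes lie side by side in clusters. Other members bind RNA or work in ribosome assembly. The name was the basis of the choice, and protein sequences were not used here to check which members hold C2H2 fingers or a KRAB domain.

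Each array detected 13068 to 14026 probes (detection p under 0.01), and median raw signals lay between 145.8 and 162.0. Over the Zfp genes, arrays of 1 group correlated at 0.973 to 0.984 and arrays of different groups at 0.954 to 0.974; over all tested genes these ranges were 0.985 to 0.991 and 0.945 to 0.960. Sample titles open with the letters RG (GFP-positive replicates 1 and 2, GFP-negative replicate 1) or KM (GFP-positive replicate 3, GFP-negative replicates 2 and 3), whose meaning the labels do not give, so differences are also given within each set of letters. In bulk samples such as these, fewer cells of a type and less RNA per cell cannot be told apart.

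Fewer Zfp genes were measured than not. A probe detected on at least 3 of the 6 arrays was needed for a test, and 140 of the 324 genes (43.2%) had one, against 8819 of the 19057 genes on the array (46.3%). Of the 184 genes not tested, 162 had no probe detected on any array and 22 had a probe detected on 1 or 2 arrays. Among these 22, 6 were seen on GFP-positive arrays alone and 7 on GFP-negative arrays alone. Of the tested genes, 116 were detected on all 6 arrays. Per array, 140, 136 and 147 Zfp genes were detected in GFP-positive cells, against 147, 133 and 137 in GFP-negative cells, so the numbers overlapped. The probes of the tested Zfp genes had a median signal of 8.23 (log2 normalized intensity), and those of all tested genes 9.54; signals of different probes do not rank transcripts.

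Of the 140 tested Zfp genes, 9 rose in GFP-positive cells and 0 fell (limma, Benjamini-Hochberg adjusted p under 0.05 over all tested probes). Over all 8819 tested genes, 8.65% were called higher and 7.16% lower, and the 9 rises make 6.43% of the Zfp genes, a share near the background. At an unadjusted p under 0.05, 28 Zfp genes (20%) were higher and 9 (6.43%) lower in GFP-positive cells, where all genes gave 15.1% higher and 15.8% lower. The groups did not overlap for 30 Zfp genes that were higher (21.4%) and 10 that were lower (7.14%) in GFP-positive cells, where all genes gave 17.7% and 18.8%. The split of the calls moved with the processing: with the authors' normalized values, or without background correction, it was 8 higher and 2 lower, with arrays scaled to a common median 9 and 1, and with scaling to the 75th percentile 8 and 1. The genes called lower under these settings were Zfp326 and Zfp607a.

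Zfp39, a KRAB zinc-finger gene, had the largest fold among the 9. It read 9.12, 9.41 and 8.83 on the GFP-positive arrays, against 7.71, 7.58 and 8.34 on the GFP-negative arrays (log2 intensity). The groups did not overlap, and GFP-negative replicate 3 came closest to the GFP-positive arrays. The rise was 2.37-fold (log2 1.25 ± 0.24 SE, limma adjusted p = 0.0155), with 1.55 within RG and 0.88 within KM arrays. Zfp334, also a KRAB zinc-finger gene, had the lowest p. It read 7.80, 7.65 and 7.57 in GFP-positive cells, against 6.43, 6.63 and 6.40 in GFP-negative cells. All 3 GFP-positive arrays lay clearly above every GFP-negative one. The rise was 2.28-fold (log2 1.19 ± 0.12 SE, limma adjusted p = 0.00111), with 1.30 within RG and 1.06 within KM arrays.

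Zfp574, for which no role is given here, was the next by p. It read 11.15, 11.13 and 10.89 in GFP-positive cells, against 10.39, 10.24 and 10.46 in GFP-negative cells. This 1.61-fold rise (log2 0.69 ± 0.12 SE, limma adjusted p = 0.0118) was 0.74 within RG and 0.53 within KM arrays. Zfp672, also left without a role here, passed with the smallest margin. It read 11.11, 11.02 and 10.83 in GFP-positive cells, against 10.69, 10.34 and 10.33 in GFP-negative cells (1.45-fold, log2 0.53 ± 0.14 SE, limma adjusted p = 0.0477). GFP-negative replicate 1 lay nearest to the GFP-positive arrays. The difference was 0.38 within RG and 0.49 within KM arrays.

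The KRAB zinc-finger genes Zfp235 and Zfp93 lie in the same cluster of Zfp genes and rose by like amounts. Zfp235 read 7.01, 7.12 and 6.88 in GFP-positive cells, against 6.52, 6.37 and 6.38 in GFP-negative cells (log2 0.58 ± 0.11 SE, limma adjusted p = 0.0163). Zfp93 read 8.91, 9.20 and 9.06 in GFP-positive cells, against 8.52, 8.65 and 8.49 in GFP-negative cells (1.42-fold, log2 0.50 ± 0.12 SE, limma adjusted p = 0.0319). Neither gene's groups overlapped, and the RG and KM arrays gave differences of 0.55 and 0.50 for Zfp235 and 0.53 and 0.49 for Zfp93. Zfp868 read 6.92, 6.87 and 7.0 in GFP-positive cells, against 6.65, 6.30 and 6.38 in GFP-negative cells (log2 0.49 ± 0.13 SE, limma adjusted p = 0.0432), and its difference was 0.24 within RG and 0.66 within KM arrays.

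The other 2 rises were of genes known for work on RNA. Zfp346 (JAZ) encodes a protein that binds double-stranded RNA, and its brighter probe read 9.93, 10.01 and 9.92 in GFP-positive cells, against 9.58, 9.35 and 9.52 in GFP-negative cells (log2 0.47 ± 0.11 SE, limma adjusted p = 0.0289). Its other tested probe did not show the rise, with a log2 fold change of -0.071 ± 0.16 at a mean signal of 6.32. Zfp593 is related to yeast Bud20, a factor that travels with the large ribosomal subunit out of the nucleus. It read 7.35, 7.77 and 7.66 in GFP-positive cells, against 7.16, 6.95 and 6.97 in GFP-negative cells (log2 0.56 ± 0.14 SE, limma adjusted p = 0.0394), and GFP-positive replicate 1 lay nearest to the GFP-negative arrays.

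**Figure D1:**
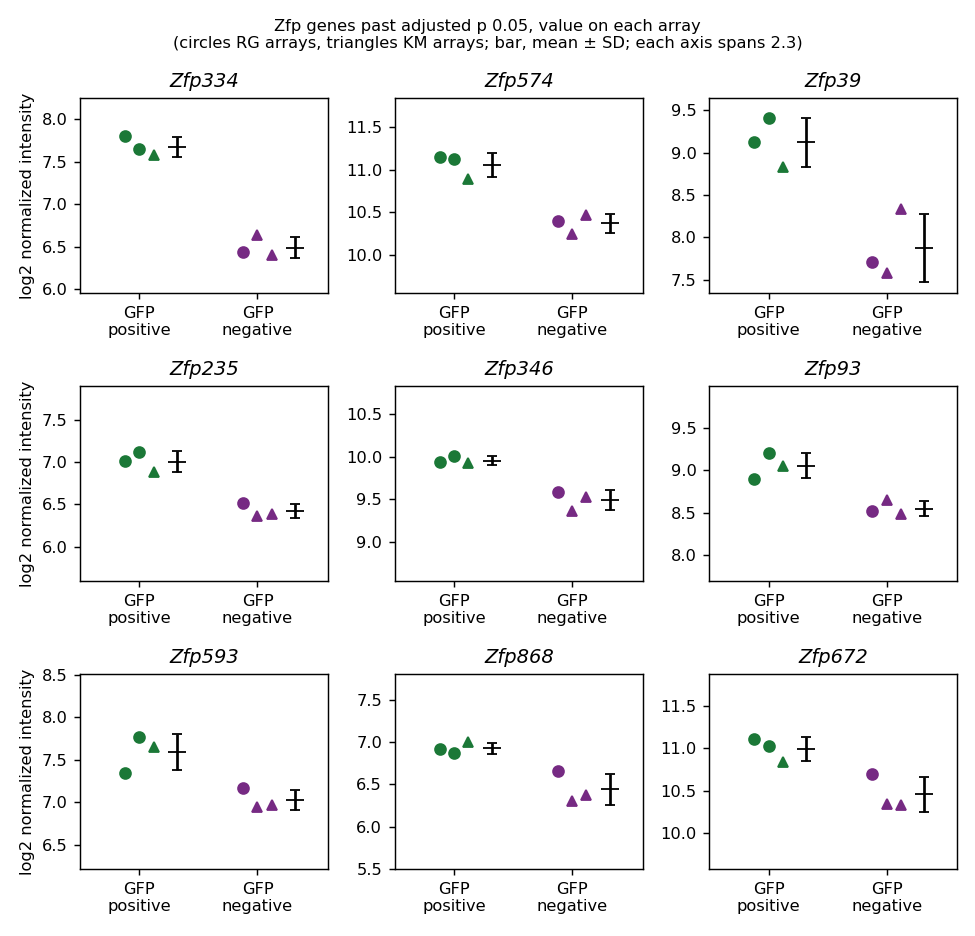
Log2 normalized intensity of the 9 Zfp genes past the threshold on each array, GFP-positive (green) left of GFP-negative (purple), circles for RG and triangles for KM arrays, with the mean ± SD of 3 arrays beside them; each vertical axis spans the same range. In all 9 panels the groups do not overlap, with the widest gaps for Zfp334 and Zfp39, and Zfp672, Zfp868 and Zfp593 the narrowest.

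The 9 calls differed in how many of the 22 alternative settings kept them. The 22 are not separate checks: an adjusted p under 0.10 and the probe with the lowest p cannot end a call. The authors' values and no background correction called the same Zfp genes. Zfp334 kept its call under all 22, with log2 fold changes of 0.61 to 1.26. Zfp574 lost its call under 2 settings, Zfp39 under 3, Zfp235 and Zfp93 under 8 each, Zfp346 and Zfp672 under 10 each, Zfp593 under 12 and Zfp868 under 14. With the authors' normalized values the calls of 3 genes ended: Zfp235 was at log2 0.26 (limma adjusted p = 0.0653), Zfp593 at 0.31 (limma adjusted p = 0.0559) and Zfp868 at 0.21 (limma adjusted p = 0.124). Without background correction these 3 calls ended too, at the same 0.26, 0.31 and 0.21. Without GFP-negative replicate 2, Zfp334 was the sole Zfp gene called higher. Without GFP-negative replicate 3 there were 4 such genes, of which 3 (Zfp334, Zfp39 and Zfp574) were among the 9. The same 3 were called without GFP-positive replicate 2, and 5 genes, 4 of them among the 9, without GFP-positive replicate 3. Leaving out GFP-negative replicate 1 raised the number to 14, of which 7 were among the 9. With the title letters as a block 6 genes were called higher, 5 of them among the 9, and Zfp346, Zfp93, Zfp593 and Zfp868 were not. Some of the 9 genes also had probes that were never detected: 1 of 2 for Zfp334, 2 of 3 for Zfp672 and Zfp93 each, and 1 of 3 for Zfp346. Many Zfp genes are close paralogs, probe sequences were not used here, and binding of a probe to a related transcript was not tested.

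RefSeq gave promoter windows (250 bases before to 50 after a transcript start, build GRCm38.p6) for 268 of the 324 Zfp genes and for 7 of the 9 that rose. Windows of 5 of these 7 are printed, among them those of the genes with the largest folds (Zfp334, Zfp39). The other printed windows hold the single ETS match among the 7 (Zfp672) or belong to the pair that rose within 1 cluster (Zfp235, Zfp93). They run 5′ to 3′ along the gene's strand, and capitals mark a match to a motif named in the next paragraph: NRF1 in Zfp334, the GC box in Zfp39, ETS in Zfp672 and ZNF143 in Zfp93, the last 2 as the reverse complement. Zfp334 lies at chr2:165388210-165388509 (minus strand), Zfp39 at chr11:58904176-58904475 (minus strand), Zfp672 at chr11:58330290-58330589 (minus strand, 1 of 3 windows of this gene), Zfp235 at chr7:24132122-24132421 (plus strand) and Zfp93 at chr7:24270168-24270467 (plus strand).
Zfp334: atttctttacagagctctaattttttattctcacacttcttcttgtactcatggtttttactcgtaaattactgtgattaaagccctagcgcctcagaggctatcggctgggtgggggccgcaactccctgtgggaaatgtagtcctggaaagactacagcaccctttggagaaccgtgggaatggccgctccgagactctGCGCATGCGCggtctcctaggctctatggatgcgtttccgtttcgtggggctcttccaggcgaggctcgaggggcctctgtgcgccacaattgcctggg
Zfp39: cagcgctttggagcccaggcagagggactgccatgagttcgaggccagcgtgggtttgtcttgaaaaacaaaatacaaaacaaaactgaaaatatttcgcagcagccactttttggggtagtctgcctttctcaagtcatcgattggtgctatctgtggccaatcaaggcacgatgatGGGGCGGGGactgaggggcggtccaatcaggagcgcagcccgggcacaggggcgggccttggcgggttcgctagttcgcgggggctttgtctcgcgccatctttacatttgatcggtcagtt
Zfp672: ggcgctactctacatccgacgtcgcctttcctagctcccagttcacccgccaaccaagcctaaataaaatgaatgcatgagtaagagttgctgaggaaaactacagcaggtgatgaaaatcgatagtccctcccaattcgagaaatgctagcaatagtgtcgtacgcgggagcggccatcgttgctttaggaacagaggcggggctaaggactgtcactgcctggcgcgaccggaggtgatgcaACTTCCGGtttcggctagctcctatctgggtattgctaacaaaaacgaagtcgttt
Zfp235: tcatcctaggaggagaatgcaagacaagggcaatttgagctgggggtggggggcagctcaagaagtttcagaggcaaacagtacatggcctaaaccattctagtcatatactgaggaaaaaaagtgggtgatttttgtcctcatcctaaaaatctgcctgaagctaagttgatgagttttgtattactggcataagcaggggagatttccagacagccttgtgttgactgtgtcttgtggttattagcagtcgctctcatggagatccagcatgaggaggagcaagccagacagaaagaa
Zfp93: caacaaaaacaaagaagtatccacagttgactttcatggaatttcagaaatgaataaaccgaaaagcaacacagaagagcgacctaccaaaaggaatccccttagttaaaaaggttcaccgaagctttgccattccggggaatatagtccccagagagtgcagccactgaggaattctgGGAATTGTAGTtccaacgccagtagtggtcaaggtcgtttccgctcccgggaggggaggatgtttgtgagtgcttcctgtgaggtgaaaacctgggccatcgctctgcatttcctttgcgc

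Zfp promoters as a group were rich in CpG. The median ratio of observed to expected CpG was 0.658 over the 328 windows of Zfp genes and 0.384 over all 32851 windows, with a median GC content of 55.7% and 52.7%. Exact matches were searched on both strands for 9 motifs, and in the Zfp windows no match of 1 motif overlapped a match of another. The ETS motif CCGGAAGT was in 10.7% of Zfp windows and 3.89% of all windows, and the ZNF143 motif in 3.05% and 0.286%. The NRF1 motif was in 3.35% of Zfp windows and 0.971% of all, the YY1 motif in 1.83% and 0.852%, and the CRE TGACGTCA in 3.96% and 1.79%. The GC box GGGGCGGGG (11.6% and 11.4%) and the E-box CACGTG (7.01% and 7.15%) had like shares. The EBF motif was in 0.61% and 0.904%, and the inverted repeat known as a site for Zfp423 in 0 of the Zfp windows and 0.0244% of all. In the 144 windows of tested Zfp genes, the GC box had 18.1%, ETS 8.33%, the E-box 7.64% and the CRE 6.25%. NRF1 had 4.86% there, ZNF143 3.47%, YY1 2.08%, EBF 1.39% and the inverted repeat 0. Among the 7 genes that rose and had a window, the matches were NRF1 in Zfp334, ETS in Zfp672, ZNF143 in Zfp93, the GC box in Zfp39, Zfp346 and Zfp868, and the CRE in Zfp868. The Zfp235 window held none of the 9 motifs and had a CpG ratio of 0.0679. A match is a description of the letters alone.

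The median fold change of the Zfp family lay slightly above that of all genes, as a description without a test. The median log2 fold change of the 140 tested genes was 0.12 (quartiles -0.080 and 0.33), against -0.020 (quartiles -0.23 and 0.20) over all 8819 tested genes. The fold change was above 0 for 95 Zfp genes (67.9%) and for 47.3% of all genes. The Zfp fold changes ran from -0.59 to 1.25. The distance between the medians was 0.14. At the bottom of the range lay Zfp758, singled out after its values were seen, which read 5.51, 5.72 and 6.04 in GFP-positive cells, against 6.18, 6.44 and 6.42 in GFP-negative cells (limma adjusted p = 0.0527). Zfp758 was called lower with detection on all 3 arrays of a group, array weights, the mean over probes and without GFP-positive replicate 3. It also passed at an adjusted p under 0.10. Its probe was detected on 0 GFP-positive and 3 GFP-negative arrays, which gives a bound of at least 1.10-fold lower in GFP-positive cells (each GFP-positive array at its own value or the lowest detected signal, whichever was higher).

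**Figure D2:**
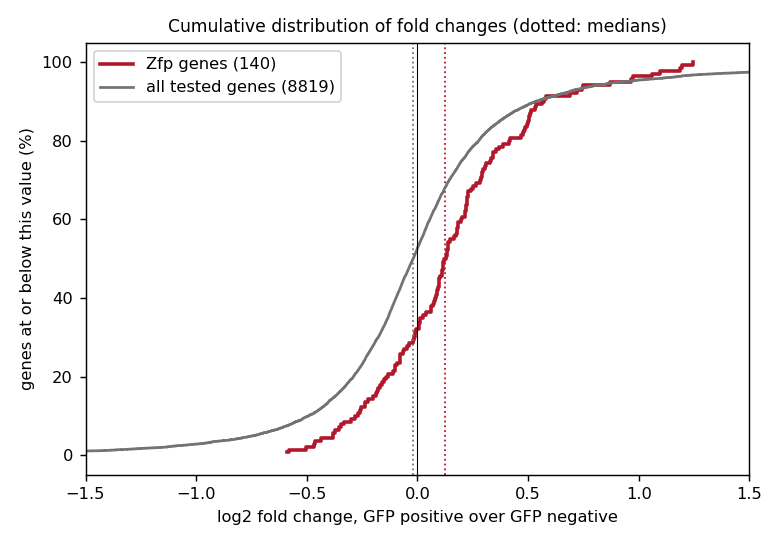
Cumulative share of genes (vertical axis, %) against the log2 fold change of GFP-positive over GFP-negative cells (horizontal axis, shown from -1.5 to 1.5) for the 140 tested Zfp genes (red) and all 8819 tested genes (grey). The red curve runs to the right of the grey one over its lower and middle part, with medians (dotted) of 0.12 and -0.020, and the curves meet near their upper ends.

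The shift was not shared by all arrays of a group. Each gene was set against its own mean over the 6 arrays, and the median deviation of the Zfp genes was 0.075, 0.078 and 0.054 on the GFP-positive arrays, against 0.056, -0.13 and -0.059 on the GFP-negative arrays. GFP-negative replicate 1 thus lay among the GFP-positive arrays, and the low values were those of GFP-negative replicates 2 and 3. For all tested genes the same medians lay between -0.016 and 0.021. Of the 140 Zfp genes, 84, 86 and 89 were above their own mean on the GFP-positive arrays, against 83, 40 and 57 on the GFP-negative arrays.

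Within the RG arrays, which hold GFP-negative replicate 1, the Zfp median was 0.039, against -0.025 for all tested genes. Within the KM arrays, which hold GFP-negative replicates 2 and 3, it was 0.14, again against -0.025. The difference was positive for 76 Zfp genes (54.3%) within RG and 100 (71.4%) within KM arrays, where all genes gave 47.2% and 47.3%. Both sets agreed on a positive sign for 65 Zfp genes (46.4%, all genes 33.0%) and on a negative sign for 29 (20.7%, all genes 38.5%). The RG set holds a single GFP-negative array, so that array and the letters cannot be told apart. Leaving out GFP-negative replicate 2 took the Zfp median to 0.080 and leaving out GFP-negative replicate 1 took it to 0.17.

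**Figure D3:**
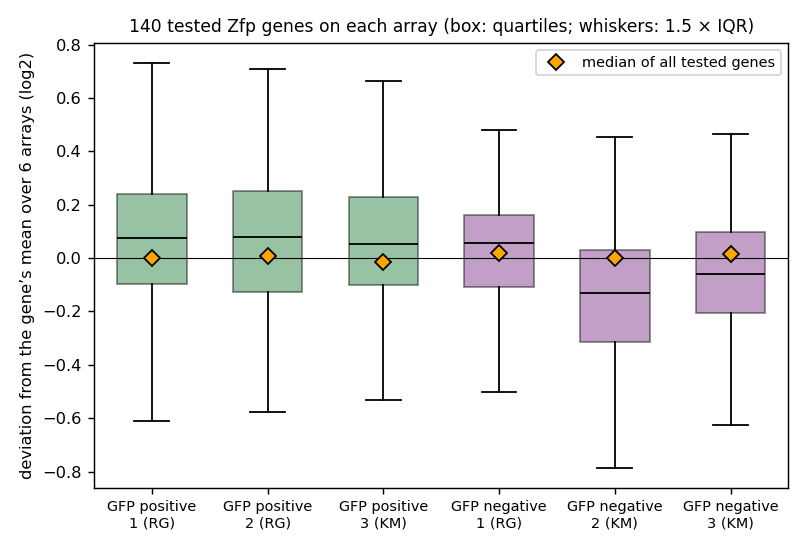
Deviation of the 140 tested Zfp genes from each gene's mean over the 6 arrays (log2, vertical axis) on the 3 GFP-positive (green) and 3 GFP-negative arrays (purple), with the title letters in parentheses; boxes show the quartiles and median, whiskers reach 1.5 times the interquartile range, and diamonds mark the median of all tested genes. GFP-negative replicate 1 has a median of 0.056, beside 0.054 to 0.078 on the GFP-positive arrays, while GFP-negative replicates 2 and 3 lie at -0.13 and -0.059.

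**Figure D4:**
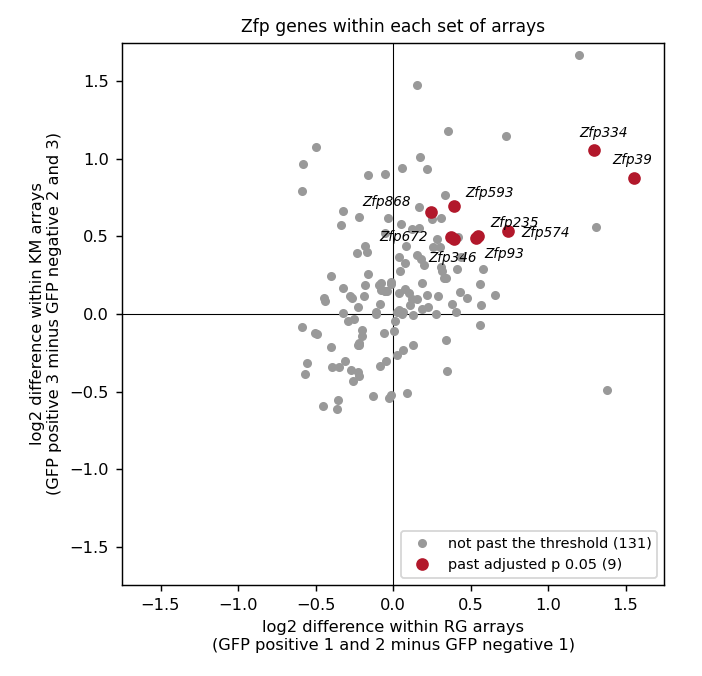
Log2 difference of GFP-positive minus GFP-negative arrays within the RG set (horizontal axis) and the KM set (vertical axis) for the 140 tested Zfp genes, with the 9 past the threshold in red. All 9 lie above 0 on both axes, which is bound to follow where every GFP-positive array lies above every GFP-negative one. Among all 140 genes 65 are positive in both sets and 29 negative in both.

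The family median lay above that of all genes with the scalings that were run. With arrays scaled to a common median, the Zfp genes had a median of 0.12 and all genes -0.070, and with scaling to the 75th percentile 0.10 and -0.086, and the distance was 0.19 in both, since these scalings differ by a constant per array and cannot change it. With the authors' normalized values it was 0.097 (0.083 and -0.014), without background correction also 0.097, and with the title letters as a block 0.14. Over the 20 settings other than changed thresholds, the distance ran from 0.097 to 0.19, and the replicate block and the intensity trend leave it as it is by construction.

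**Figure D5:**
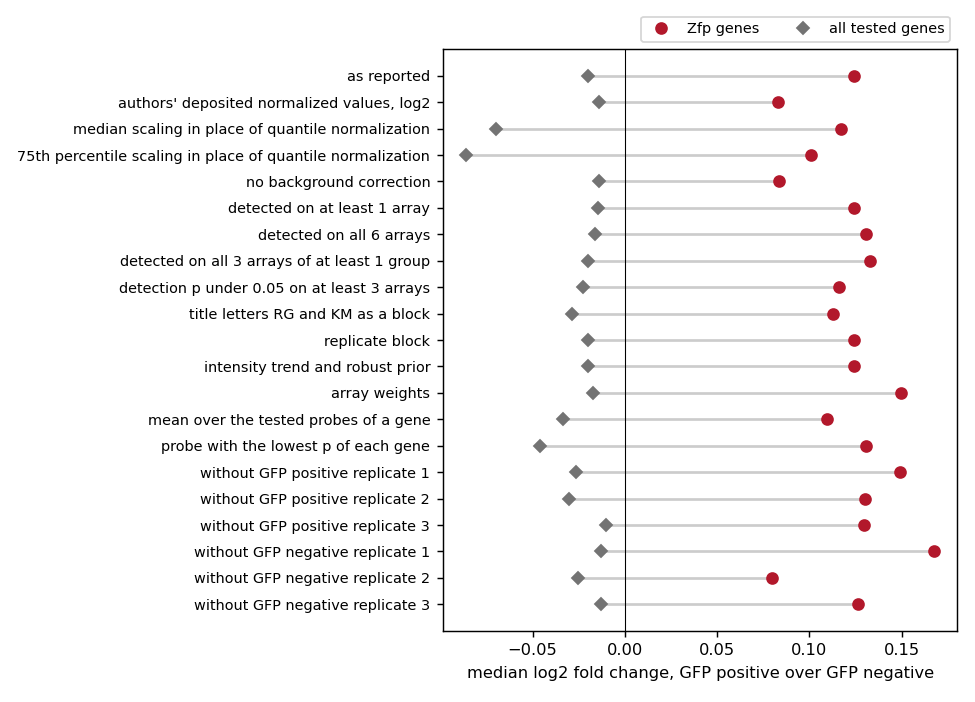
Median log2 fold change of GFP-positive over GFP-negative cells (horizontal axis) for the tested Zfp genes (red circles) and all tested genes (grey diamonds) as reported and under 20 other settings. The red point lies above 0 and right of the grey one in each row, nearest to 0 without GFP-negative replicate 2 (0.080) and farthest without GFP-negative replicate 1 (0.17).

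The Zfp median lay above that of all genes at low, middle and high signal. All tested genes were split into 3 bins of equal size by signal, at 8.37 and 10.71 (log2). The lowest bin held 72 of the Zfp genes, with a median fold change of 0.15 against -0.038 for all genes there, and 4 rises. The middle bin held 43, with 0.10 against -0.021 and 3 rises, and the highest bin 25, with 0.095 against -0.011 and 2 rises. Calls in either direction made 5.56%, 6.98% and 8% of the Zfp genes in these bins, and 18.3%, 16.3% and 12.8% of all genes. Of the 39 Zfp genes with more than 1 tested probe, 25 had probes of 1 sign, and 2 had a probe past the threshold.

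The 5 Zfp genes with the highest mean signal did not pass the test. They were Zfp46, Zfp330, Zfp592, Zfp523 and Zfp512b. Of the probes of Zfp46, 2 of 3 were never detected, and of those of Zfp523, 1 of 2. Zfp46 read 13.60, 13.31 and 13.50 in GFP-positive cells, against 13.27, 13.16 and 13.45 in GFP-negative cells (log2 0.18, 95% interval -0.12 to 0.49, limma adjusted p = 0.388). Zfp330, which encodes a nucleolar protein, averaged 13.10 ± 0.065 over GFP-positive arrays and 13.09 ± 0.17 over GFP-negative arrays (SD, n = 3 each), a difference of 0.0072 with an interval of -0.28 to 0.30. Its other tested probe read -0.30 ± 0.17 (limma adjusted p = 0.270) at a mean signal of 8.38. The intervals of Zfp592 (-0.40 to 0.14), Zfp523 (-0.20 to 0.32) and Zfp512b (-0.26 to 0.28) also spanned 0.

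Neighbouring Zfp genes were compared through the RefSeq gene order. Of the 324 genes, 323 were placed among protein-coding genes, and 138 of these lay in 25 runs of at least 3 Zfp genes with at most 2 other genes between neighbours. Of the genes in runs, 37.0% were tested, against 48.1% of the 185 outside them. The 51 tested genes in runs had a median log2 fold change of 0.22, with 0.15 within RG and 0.29 within KM arrays, and 3 of them rose. The 89 tested genes outside runs had a median of 0.087, with -0.016 within RG and 0.12 within KM arrays, and 6 of them rose. Over all tested genes 8.65% rose, and the median was -0.020, with -0.025 within RG and within KM arrays. Whether genes in runs differ from the rest was not tested.

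The run from Zfp180 to Zfp94 holds 10 Zfp genes, of which 5 were tested and 2, Zfp235 and Zfp93, rose (all genes 8.65%). Zfp94 read 9.03, 8.76 and 8.34 in GFP-positive cells, against 8.17, 6.49 and 7.89 in GFP-negative cells, and its difference of 1.19 ± 0.43 (log2, SE) did not pass (limma adjusted p = 0.115). Zfp180 went the other way, with 10.75, 11.02 and 11.18 in GFP-positive cells, against 11.38, 11.29 and 11.31 in GFP-negative cells (limma adjusted p = 0.131). Zfp61 read 0.18 ± 0.13 higher (log2, SE). The run's median was 0.50, with 0.53 within RG and 0.49 within KM arrays.

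The run from Zfp84 to Zfp382 holds 11 Zfp genes, of which 5 were tested. Zfp84, Zfp30, Zfp790, Zfp27 and Zfp82 all read higher in GFP-positive cells, by log2 0.41 to 1.06 (47.3% of all tested genes read higher). None of them passed the threshold, where 15.8% of all tested genes did. The median of these 5 Zfp genes was 0.17 within RG and 0.69 within KM arrays. For Zfp27 the values were 9.37, 8.87 and 9.05 in GFP-positive cells, against 8.97, 7.96 and 7.18 in GFP-negative cells (limma adjusted p = 0.140), so GFP-negative replicate 1 again lay among the GFP-positive arrays. The longest run, from Zfp712 to Zfp738, holds 16 genes, of which 5 were tested, with a median of 0.22 and with -0.16 within RG and 0.77 within KM arrays. In the run of 14 from Zfp677 to Zfp946, 4 genes were tested, with a median of -0.050. These were the 4 longest runs.

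Few members with known roles in fat or mesenchymal cells could be tested. Of 12 listed, 10 were on the array and 5 were tested, with 0 past the threshold in limma and 1 higher and 1 lower at an unadjusted p under 0.05. Over all tested genes 15.8% passed, and 15.1% were higher and 15.8% lower at the unadjusted p, so 0 of 5 is near the background. Zfp638, a cofactor of C/EBP proteins in adipogenesis, read 10.25, 9.88 and 9.80 in GFP-positive cells, against 10.29, 10.17 and 10.18 in GFP-negative cells (log2 -0.24, 95% interval -0.57 to 0.098). Zfp30, a KRAB gene known to favour adipogenesis, read 10.06, 9.97 and 10.43 in GFP-positive cells, against 9.96, 9.47 and 9.51 in GFP-negative cells (limma adjusted p = 0.115), and its difference was 0.056 within RG and 0.94 within KM arrays. Zfp703, a corepressor of the NET family that was detected on 2 of the 3 GFP-positive arrays, read 6.26, 5.86 and 6.13 in GFP-positive cells, against 6.45, 6.38 and 6.57 in GFP-negative cells (log2 -0.38 ± 0.14 SE, limma adjusted p = 0.107). Zfp64, and Zfp219, a partner of Sox9 in cartilage cells, differed by -0.080 ± 0.14 and -0.11 ± 0.11. Zfp516, known for its part in brown fat, Zfp217, Zfp395, Zfp503 and Zfp462 were on the array and did not reach the detection limit for a test.

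Members known for imprints, retroelements or pluripotency were as few: of 14 listed, 9 were on the array and 5 were tested, with 0 past the threshold in limma and 0 at an unadjusted p under 0.05, again near the 15.8% of all genes that passed. Zfp809, which silences retroviruses in embryonic cells, read 8.37, 8.49 and 8.80 in GFP-positive cells, against 8.38, 8.29 and 8.13 in GFP-negative cells (log2 0.28, 95% interval -0.054 to 0.62). Zfp445, a guardian of imprints, differed by 0.11 ± 0.25, and Zfp281, a regulator of pluripotent cells, by 0.31 ± 0.24. Zfp322a and Zfp819 read lower by -0.28 ± 0.20 and -0.58 ± 0.43 (log2, SE). Zfp42 (Rex1), Zfp296, Zfp568 and Zfp429 were on the array and were not tested.

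Among members with roles in RNA, ribosomes or the spindle, 11 were listed and on the array and 5 were tested, of which Zfp346 and Zfp593 rose (40%, all genes 8.65%) and 0 fell (1 lower at an unadjusted p under 0.05). Zfp326, part of a complex that couples splicing to transcript elongation, was that gene, at 9.94, 9.80 and 9.86 in GFP-positive cells, against 10.13, 10.37 and 10.21 in GFP-negative cells. All GFP-positive arrays lay below all GFP-negative ones, and the difference of -0.37 ± 0.11 (log2, SE, limma adjusted p = 0.0668) passed the threshold with the authors' values, without background correction (-0.33 in both) and with scaling to the 75th percentile (-0.44). A second tested probe of Zfp326, with a mean signal of 6.24, read 0.42 ± 0.56, so the probes differ in sign. Zfp207 (BuGZ), a kinetochore and spindle protein, differed by 0.13 ± 0.14 on its brighter probe and by -0.62 ± 0.16 on its other tested probe (limma adjusted p = 0.0423), so its probes disagree in sign. Zfp318 differed by 0.095 ± 0.22.

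The genes of the proteins through which KRAB zinc fingers act were described beside the family. Of 27 listed KRAB co-repressor and heterochromatin genes, 23 were on the array and 16 were tested, with a median log2 fold change of 0.014. In limma 0 passed, where 15.8% of all tested genes did, and 2 were higher and 2 lower (12.5% each) at an unadjusted p under 0.05, near the 15.1% and 15.8% of all genes. Trim28 averaged 11.69 ± 0.15 over GFP-positive arrays and 11.68 ± 0.11 over GFP-negative arrays (SD, n = 3 each), a difference of 0.0085 with a 95% interval of -0.28 to 0.30. Setdb1 differed by -0.31 (interval -0.75 to 0.14). Chd4 (-0.43 ± 0.13, limma adjusted p = 0.0706) and Atf7ip (0.36 ± 0.12, limma adjusted p = 0.0853) had the lowest p.

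Genes with other symbols used for zinc-finger proteins were set beside the family. They were taken by symbol alone, which brings in Zbtb8os, and zinc fingers were not checked. Of 20 genes with Zkscan or Zscan symbols, whose proteins carry a SCAN domain beside their fingers, 10 were tested, all 10 read higher in GFP-positive cells (47.3% of all tested genes did) and 2 passed (20%, all genes 8.65% higher), Zkscan6 (0.79 ± 0.16, limma adjusted p = 0.0219) and Zscan21 (0.47 ± 0.11, limma adjusted p = 0.0303). Their median was 0.45, with 0.25 within RG and 0.45 within KM arrays. Of 38 genes with Zbtb symbols, 24 were tested, with a median of -0.066. Zbtb9, Zbtb24 and Zbtb45 rose (12.5%, all genes 8.65%) and Zbtb2 and Zbtb7a fell (8.33%, all genes 7.16%). Zbtb9 was detected on 3 GFP-positive and 0 GFP-negative arrays, and was at least 1.88-fold higher with a bound as for Zfp758. Neither list was tested against the Zfp genes.

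Most tested mural and Dpp4-positive progenitor markers differed between the groups, and the other marker lists held 1 call or 0 each. The part of other cells in the Zfp differences was not tested. Over all tested genes, 8.65% were called higher and 7.16% lower. In lists this short, 1 call cannot be told from those shares. Of 9 mural markers 6 were tested and 5 rose (Abcc9, Kcnj8, Myh11, Acta2 and Notch3), and Tagln was not detected. The mural list summed to 12.64 to 13.30 on GFP-positive and 11.78 to 12.15 on GFP-negative arrays (log2). Abcc9 and Kcnj8 were detected on 3 GFP-positive and 0 GFP-negative arrays. With undetected arrays bounded as for Zfp758, they were at least 4.80-fold and 4.71-fold higher in GFP-positive cells. Of 7 markers of Dpp4-positive progenitors 5 fell and 0 rose (summed 14.62 to 15.20 against 15.59 to 15.63). Pi16 read the other way without passing (0.44 ± 0.13, limma adjusted p = 0.0713, groups not overlapping), and Wnt2 read 0.019 ± 0.29. The endothelial list summed to 12.03 to 12.23 on GFP-positive and 13.35 to 13.48 on GFP-negative arrays, with 1 of 6 tested genes lower (Tek, -1.64 ± 0.12) and Tie1 not detected. That sum is mostly Tek: Emcn (0.74 ± 0.22, limma adjusted p = 0.0656, groups not overlapping) and Cdh5 (0.61 ± 0.31, limma adjusted p = 0.238) read the other way without passing. Of the leukocyte list 3 of 7 genes on the array were tested and Lyz2 rose (3.97 ± 0.23). Lyz2 was detected on 3 GFP-positive and 0 GFP-negative arrays, so that fold rests on undetected signal. With a bound as for Zfp758, Lyz2 was at least 6.97-fold higher in GFP-positive cells. Fcer1g read -1.12 ± 0.47 (limma adjusted p = 0.161) and Laptm5 0.27 ± 0.42. Ptprc, Cd52, Tyrobp and Coro1a had no detected probe (leukocyte list summed 9.63 to 10.02 against 8.63 to 9.43). The mesothelial (8.75 to 10.37 against 9.01 to 9.26), adipocyte (8.08 to 9.11 against 7.85 to 8.27) and proliferation lists (7.32 to 7.58 against 7.16 to 7.76) held 0 calls in limma over 2, 1 and 1 tested genes. Stromal markers were detected in both groups (16.30 to 16.44 against 16.24 to 16.35), and of 6 tested Pdgfrb rose.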

How the data were processed

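Per the file headers, the authors deposited probe signals as linear intensity, not normalized, beside a detection p-value for each signal. GenomeStudio is named in the submitters' processing notes, with no version. RNA went through 2 rounds of amplification, per the labels' protocols. A second deposited table holds intensity values that share 1 distribution over the arrays and was read as quantile-normalized.

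Signals were corrected and normalized with neqc in limma 3.58.1 (R 4.3.3; offset 16, quantile normalization, log2). Of 45281 probes, the 13727 that 3 or more arrays detected (p under 0.01) were tested with lmFit and eBayes, 2-sided, Benjamini-Hochberg adjusted over all of them, threshold 0.05. Where several probes of a gene were tested, the one with the highest mean stands for it. Positive log2 fold changes mean higher in GFP-positive cells; errors are the fit's SE. Of the probes, 10378 had no gene symbol and 18 several, and these stand for no gene here. Gene numbers of all 324 Zfp genes were found in RefSeq. The number of arrays limits the precision.

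Named genes were every Zfp gene past the threshold, the 5 brightest and the tested genes of 3 role lists; others are marked as singled out or belong to a run of neighbours. Members, lists and alternatives were chosen with earlier results of these data known. No set test was run: the family is described by counts and medians beside all tested genes. The procedure was tested on simulated data. Counts of zinc fingers and KRAB domains had been planned and were not made, since protein sequences were not used here. Alternatives covered scaling, background correction, detection filters, blocks, the variance model, the probe rule, thresholds and each array left out.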

Additional observations from a re-analysis of the deposited data

How the results depend on the processing

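The count of Zfp genes higher in GFP-positive cells (9) was 15 at an adjusted p under 0.10, 1 at an adjusted p under 0.01 and 1 to 14 with single arrays left out; the lowest came without GFP-negative replicate 2 and the highest without GFP-negative replicate 1. The count lower (0) was 2 with the authors' values and without background correction, 1 with median scaling, 75th percentile scaling, detection on all 3 arrays of a group, title letters as a block, array weights, the mean over probes and the probe with the lowest p, 6 at an adjusted p under 0.10, and 0 to 2 with single arrays left out. With the replicate block 2 genes were higher, Zfp334 and Zfp574. The labels do not say that replicate numbers pair samples. Deviations of same-numbered arrays from their group means correlated at -0.051, -0.19 and 0.080 over all tested genes. Arrays with different numbers gave -0.20 to 0.24, the highest for GFP-positive replicate 2 with GFP-negative replicate 1. Deviations from a mean of 3 arrays depend on each other, so whether samples were paired cannot be told from these values. The Zfp median (0.12) ran from 0.080 to 0.17 and its distance from the all-gene median (0.14) from 0.11 to 0.18 with single arrays left out. Both kept their sign under every alternative in which they were computed. Zfp207 was -0.62 by its probe with the lowest p, where its brighter probe read 0.13. Among single named genes, 67 values under an alternative fell short of a threshold that the reported value had passed, 4 newly passed, 9 moved by more than the spread between replicates, and 511 stayed on their side of the threshold or moved by less than that spread. Signal close to background limits the 184 Zfp genes that were not tested.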
